A study of Mus musculus with 32 samples.

Results

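RNA of the tibialis anterior (TA), a muscle at the front of the lower leg, was compared between newborn *Mtm1* knockout (KO) and wild-type (WT) mice at postnatal day 1 (P1), an age before this model shows signs of disease. The comparison held 8 of the 32 libraries of the series, n=4 WT and n=4 KO, which were chosen by the genotype and age in their labels. KO mice (*Mtm1*-/y) carried a targeted deletion in exon 4 of the X-linked gene in every cell of the body. The line was made on the 129S2PAS background and then rederived onto C57BL6J, the background of both genotypes. Levels are given in CPM, the share of a library's counts on a scale set by the TMM method, which evens out libraries that differ in composition. Both groups were untreated males, with the Y-linked *Ddx3y* at 78.6 to 102 CPM in the 8 libraries and *Xist* at or below 0.564 CPM. Library totals were 60690521 to 70208933 counts in WT and 58473134 to 85631408 counts in KO. The labels give neither litter nor hour of dissection, so that a difference between genotypes in either cannot be told apart from genotype. Nothing in the labels says that the libraries of a group came from separate litters, and the *P*-values measure the spread between these libraries.

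*Mtm1* encodes myotubularin, a phosphatase that removes a phosphate from the signalling lipids PI3P and PI(3,5)P2 on endosomes. Its loss causes X-linked myotubular myopathy, in which the triads, where the surface membrane meets the calcium store of the muscle fibre, become disorganised. Several genes described here are textbook targets of the glucocorticoid receptor. This nuclear receptor is held in the cytoplasm by chaperones until it binds corticosterone, the main adrenal steroid of the mouse, and then binds DNA elements near its targets. In muscle it is known to raise genes of protein breakdown and of the circadian clock.

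Exon 4 of *Mtm1* is shown because the KO allele is defined by it. It is coding sequence, spans chrX:71234852-71234946 on the plus strand of GRCm38 and holds 95 bases, which leaves 2 bases beyond whole codons. Its letters, from the GENCODE transcript *Mtm1*-201 of 14 exons, are given from 5′ to 3′, with nothing set in capitals.
*Mtm1* exon 4: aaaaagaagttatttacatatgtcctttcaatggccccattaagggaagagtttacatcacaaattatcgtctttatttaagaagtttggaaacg

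The targeted gene was below WT in each KO library, at 8.23, 8.24, 9.18 and 8.02 CPM in WT against 3.60, 3.68, 3.77 and 6.04 CPM in KO. KO replicates 1, 2 and 3 lay close together and KO replicate 4 lay between them and WT. The log2 fold change was -0.98 (SE 0.172) and did not pass the test over all genes (adjusted *P*=0.0669, quasi-likelihood test of edgeR). Without KO replicate 4 it was -1.19 with an SE of 0.0864 (adjusted *P*=0.0034, edgeR). These counts are summed over the whole gene, so they contain reads from exons outside the deletion and do not test the loss of exon 4 itself.

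KO replicate 4 also differed from the rest in what tissue it held. In that library 81 genes were at least 10-fold above each of the other 7 libraries, against 0 or 1 such gene in any other library. They were led by genes of hindgut epithelium, among them *Lypd8* at 113 CPM (0 to 0.0164 CPM elsewhere) and *Clca1*, a goblet cell gene, at 79.8 CPM (0.0361 to 0.175 CPM elsewhere). Summed markers of gut epithelium reached 209 CPM against 52.8 to 75.1 CPM in the other 7, although *Cdx2* and *Fabp1* were at 0.0138 CPM. Neuron markers summed to 56.7 CPM against 9.48 to 12.6 CPM. Its skeletal muscle markers summed to 34870 CPM, below the 48540 to 65270 CPM of the rest, and *Myh8*, the perinatal myosin heavy chain, was at 8781 CPM against 21370 to 27860 CPM. The main counts and several list counts are also given without it, but not every count that it moved.

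Markers of other tissues varied within both genotypes. Keratinocyte markers summed to 4407, 3515, 11110 and 4580 CPM in WT against 9286, 8217, 3112 and 6656 CPM in KO, so that the groups overlapped over most of their range. All 9 neutrophil markers tested and all 8 erythroid markers tested had a negative log2 fold change, but 0 of these passed an adjusted *P* of 0.05 by edgeR or DESeq2, and 3 of the 9 and 0 of the 8 had an unadjusted *P* under 0.05 by edgeR. Neutrophil sums were 41.9 to 235 CPM in WT and 27.8 to 73.4 CPM in KO. Erythroid sums were 1165 to 2773 CPM in WT and 1394 to 1584 CPM in KO, and WT replicate 1 was the highest library for both cell types. Macrophage sums (330 to 353 CPM in WT, 307 to 316 CPM in KO) and those of pericytes and smooth muscle (987 to 1008 CPM in WT, 903 to 941 CPM in KO) did not overlap, with a small distance between groups. Single markers went both ways, with 4 of 10 macrophage markers higher and 6 lower in KO. Of 8 pericyte and smooth muscle markers, 4 were higher and 4 lower. In both cell types 0 markers passed an adjusted *P* of 0.05 in edgeR's test. At this limit DESeq2 called 2 of the 10 macrophage markers and 1 of the 8 pericyte and smooth muscle markers, where it called 395 of all 18100 genes. At an unadjusted *P* under 0.05 by edgeR, 4 of the 10 and 2 of the 8 differed (10.9% of all genes). In bulk RNA, fewer cells of a type and less RNA per cell cannot be told apart.

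**Figure D1:**
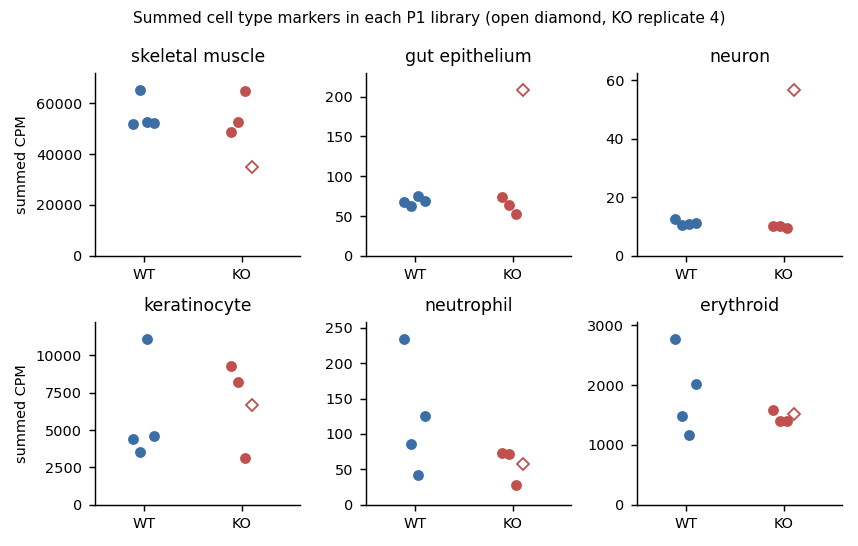
Summed CPM of the markers of 6 cell types (y axis, from 0) in each of the 4 WT and 4 KO libraries at P1 (x axis). KO replicate 4, the open diamond, stands at 209 CPM for gut epithelium and 56.7 CPM for neurons, above the other 7 libraries, and at 34870 CPM for skeletal muscle, below them.

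Across the transcriptome, the differences at P1 were few and went mostly upward in KO. Of the genes that passed the filter on low counts, 18100 in all, 8 (0.0442%) were differentially expressed genes (DEGs), defined by an adjusted *P* under 0.01 and a change of more than 1.5-fold in edgeR's quasi-likelihood test, and all 8 were higher in KO. At an adjusted *P* under 0.05 with no fold limit, 44 genes (0.243%) were called, 39 higher (0.215%) and 5 lower (0.0276%). At an unadjusted *P* under 0.05, 10.9% of all genes differed, 6.07% higher and 4.86% lower in KO. All genes together had a median log2 fold change of 0.01. DESeq2, a second count model, called 93 DEGs (0.514%) in the same libraries, and the 8 of edgeR were all among them.

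**Figure D2:**
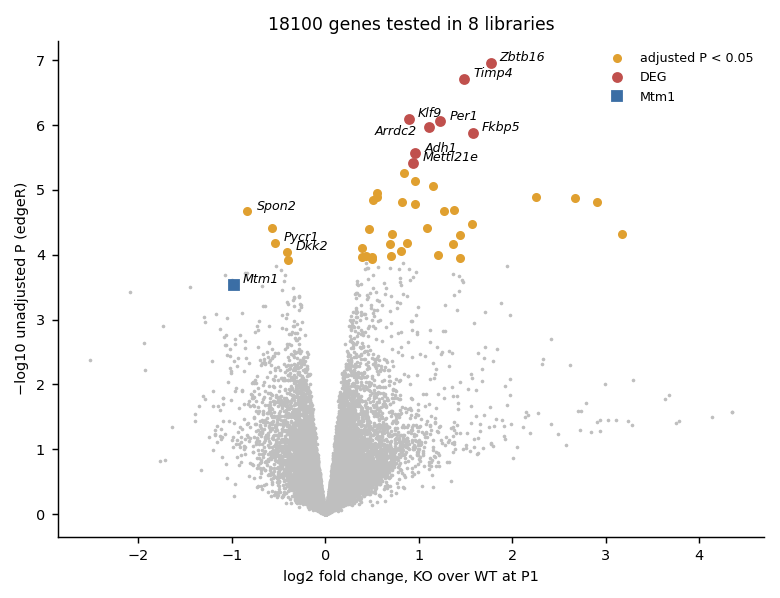
Log2 fold change of KO over WT (x axis) against the −log10 of the unadjusted *P* (y axis) for the 18100 genes tested at P1, 1 point per gene. The 8 DEGs, in red, lie on the right, the other genes with an adjusted *P* under 0.05, in orange, include 5 on the left, and *Mtm1*, the blue square, lies below the genes called.

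Once KO replicate 4 was left out, 15 of 18225 genes (0.0823%) were DEGs and 92 (0.505%) had an adjusted *P* under 0.05 by edgeR, 76 of them higher (0.417%) and 16 lower (0.0878%). All 8 DEGs of the 8 libraries were among the 15, and 42 of the 44 wider calls were among the 92. The 7 further DEGs were *Wipf3*, *Kcnc1*, *Ppara*, *Foxo3* and *Lvrn*, higher in KO (0.0713% of all genes with the 8), and *Mtm1* and *Fam19a4*, lower in KO (0.011%). *Fam19a4*, a secreted chemokine-like gene, was at 0.582 to 0.677 CPM in WT, at 0.0845 to 0.105 CPM in KO replicates 1, 2 and 3 and at 0.303 CPM in KO replicate 4. DESeq2 called 106 DEGs (0.582%) without KO replicate 4. The count was thus larger when the library with gut genes was left out. With WT replicate 1, 2 or 4 left out, edgeR called 0 DEGs, and 7, 6 and 14 genes had an adjusted *P* under 0.05. Leaving out KO replicate 1, 2 or 3 or WT replicate 3 gave 5, 4, 3 and 4 DEGs.

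*Zbtb16* encodes PLZF, a zinc finger transcription repressor that is strongly induced by glucocorticoids. It was at 13.5, 14.5, 17.96 and 15.2 CPM in WT against 44.7, 49.1, 53.4 and 61.0 CPM in KO. The lowest KO library exceeded the highest WT library by a wide margin, and the log2 fold change was 1.77 (SE 0.119, adjusted *P*=0.00174, edgeR) with 8 libraries and 1.68 (SE 0.103) without KO replicate 4.

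*Fkbp5*, which encodes a co-chaperone of the glucocorticoid receptor that feeds back on it, was at 28.7, 30.6, 44.4 and 38.8 CPM in WT against 96.4, 108, 102 and 119 CPM in KO. WT values spread more for this gene than for the other DEGs, yet the groups stayed apart (log2 fold change 1.57, SE 0.141, adjusted *P*=0.00402, edgeR). *Timp4*, an inhibitor of matrix metalloproteinases, was at 4.95, 4.34, 4.83 and 4.58 CPM in WT against 11.4, 13.0, 15.3 and 12.8 CPM in KO, which is 1.49 higher on the log2 scale (SE 0.106).

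*Per1*, a repressor of the circadian clock that glucocorticoids also induce directly, was at 45.9, 47.3, 52.1 and 50.7 CPM in WT against 134, 97.9, 125 and 104 CPM in KO. All KO libraries were above all WT libraries, by a log2 fold change of 1.23 (SE 0.105). *Klf9*, a Krüppel-like transcription factor and direct receptor target, was at 21.4, 21.4, 21.2 and 21.8 CPM in WT, almost without spread, and at 36.0 to 45.3 CPM in KO (log2 fold change 0.89, SE 0.0752).

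Among the remaining 3 DEGs, *Arrdc2*, an arrestin domain gene, was at 5.37 to 5.72 CPM in WT and 10.6 to 13.4 CPM in KO. *Adh1*, an alcohol and retinol dehydrogenase, was at 29.4 to 37.0 CPM in WT and 58.1 to 69.9 CPM in KO. *Mettl21e*, a methyltransferase gene of skeletal muscle, was at 32.1 to 40.7 CPM in WT and 60.0 to 74.6 CPM in KO. For none of the 8 genes did WT and KO overlap, where 4.49% of all genes tested did not overlap with KO above WT. The choice of these genes by *P* in the same libraries favours this, so it is a description and not further evidence. Their log2 fold changes were 0.89 to 1.77 with 8 libraries, and KO replicate 4 lay inside the range of the other KO libraries for *Timp4*, *Klf9*, *Per1* and *Arrdc2*.

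**Figure D3:**
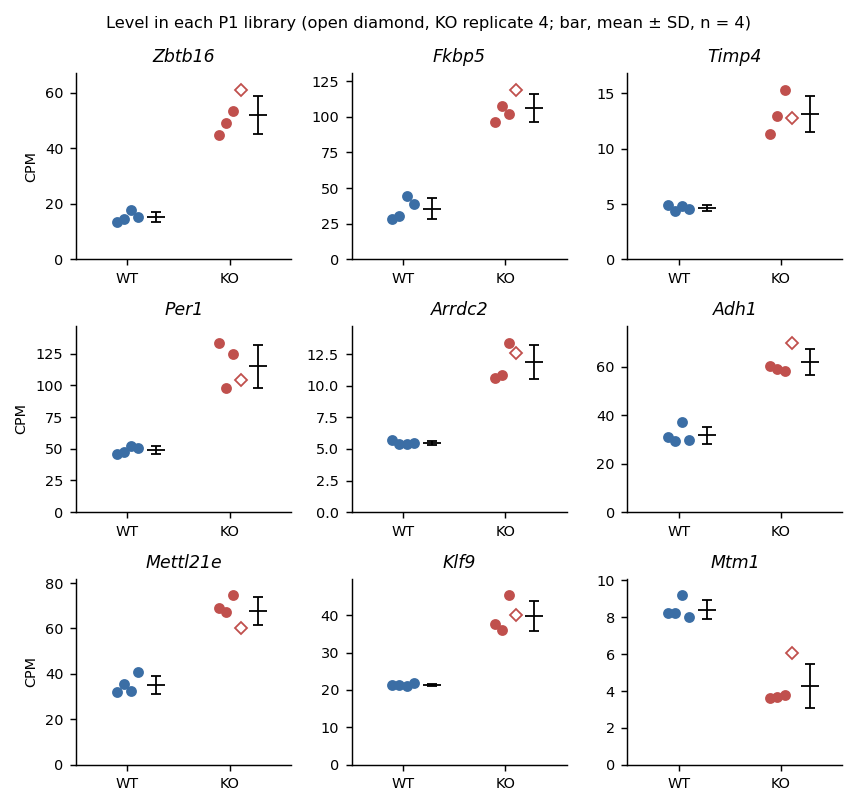
CPM of the 8 DEGs and of *Mtm1* (y axes, from 0) in each WT and KO library at P1 (x axes), with the mean and SD of n=4 beside the points. In the 8 DEGs each KO library lies above each WT library, and for *Mtm1* KO replicate 4, the open diamond at 6.04 CPM, lies between 3 KO libraries at 3.60 to 3.77 CPM and WT.

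The other genes called higher included further known glucocorticoid targets. *Tsc22d3*, which encodes the anti-inflammatory protein GILZ, was at 48.4 to 65.0 CPM in WT and 99.99 to 127 CPM in KO (log2 fold change 0.96, SE 0.105, adjusted *P*=0.0133, edgeR). *Sult1a1*, a phenol sulfotransferase, had a log2 fold change of 0.84 (SE 0.0891) and *Pik3r1*, the p85 subunit of PI3 kinase, one of 0.55 (SE 0.0631). *Klf15*, which encodes a factor that acts with the receptor on amino acid breakdown, rose from 4.79 to 6.41 CPM in WT to 10.9 to 20.1 CPM in KO.

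A list of 40 glucocorticoid responsive genes was described as a group. It contains the 8 DEGs because earlier results of these data were known when it was written, so its direction is not independent evidence. Of the 40, 31 were higher and 1 lower in KO at an unadjusted *P* under 0.05 (6.07% and 4.86% of all genes). At an adjusted *P* under 0.05 in edgeR's test 16 were higher, and the median log2 fold change was 0.56 (0.01 over all genes). Apart from the 8 DEGs, 23 of 32 were higher and 1 was lower at an unadjusted *P* under 0.05, 8 were higher at an adjusted *P* under 0.05, and the median was 0.47. Without KO replicate 4 the same 32 gave 23 higher (7.48% of all genes), 1 lower and a median of 0.49. Leaving out each library in turn gave 29 to 31 higher members of the 40 and medians of 0.55 to 0.58.

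The members differed among themselves. *Nr3c1*, the receptor itself, was at 131 CPM in WT and 127 CPM in KO (log2 fold change -0.04, SE 0.0911), and *Hsd11b1*, which reactivates the steroid inside cells, was at 4.08 and 4.22 CPM. *Pdk4*, a kinase that blocks glucose oxidation, was at 193 and 194 CPM on average with a wide error (log2 fold change 0.01, SE 0.357). *Angptl4*, an inhibitor of lipoprotein lipase, was the 1 member lower at an unadjusted *P* under 0.05, with 82.7 CPM in WT and 36.1 CPM in KO (log2 fold change -1.20, SE 0.386, adjusted *P*=0.311, edgeR). *Nr3c2*, the mineralocorticoid receptor and not on the list, was at 13.8, 13.7, 10.6 and 11.2 CPM in WT against 7.30, 7.32, 5.36 and 7.61 CPM in KO. The groups did not overlap for *Nr3c2* (4.24% of all genes did not overlap with KO below WT). The log2 fold change was -0.84 with an SE of 0.139, which did not pass the test of the 8 libraries (adjusted *P*=0.059, edgeR) and passed in the fit of all 32 libraries described below (adjusted *P*=0.0223, edgeR).

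Promoter windows from RefSeq (GRCm38.p6, 250 bases before to 50 after each gene's start) were searched for a pattern that covers the glucocorticoid receptor element, GNACA followed after any 3 bases by its reverse complement TGTNC, and for the E-box CACGTG, which clock factors bind and other factors share. Each pattern is its own reverse complement, so 1 search covers both strands. Windows were found for 6 of the 8 DEGs and 33 of the 40 list members. The receptor pattern was in 0 of 7 windows of the DEGs and in 6 of 48 windows of the list (12.5%), against 0.475% of all 32851 windows. The list was chosen for response to glucocorticoids and with earlier results of these data known, so its share is a description. It also holds *Nr3c1*, the receptor itself, and *Hsd11b1*. The E-box was in the windows of *Adh1*, *Fkbp5* and *Per1* among the DEGs (42.9% of 7 windows). It was in 7.15% of all windows and in 9.21% of the windows of genes tested at P1. Whether any of these letters was bound in TA was not measured.

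The windows of *Sgk1*, *Mt1*, *Fam107a* and *Per1* are printed from 5′ to 3′ because these genes are called or listed and each window holds 1 match of the pattern it is shown for, set in capitals, the receptor pattern in the first 3 and the E-box in *Per1*. The genes other than *Per1* were chosen after their windows were seen. That of *Sgk1*, a kinase induced by steroids, is at chr10:21993640-21993939 (plus strand), that of *Mt1*, a metallothionein, at chr8:94178839-94179138 (plus strand), that of *Fam107a*, an actin-associated stress gene, at chr14:8309730-8310029 (minus strand, 1 of its 2 overlapping windows) and that of *Per1* at chr11:69098699-69098998 (plus strand).
*Sgk1* window: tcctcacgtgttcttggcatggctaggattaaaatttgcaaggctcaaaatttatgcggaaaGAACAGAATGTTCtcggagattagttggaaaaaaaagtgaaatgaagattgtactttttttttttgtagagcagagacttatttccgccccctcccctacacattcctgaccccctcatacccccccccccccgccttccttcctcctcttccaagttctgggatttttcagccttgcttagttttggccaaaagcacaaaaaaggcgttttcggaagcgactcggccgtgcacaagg
*Mt1* window: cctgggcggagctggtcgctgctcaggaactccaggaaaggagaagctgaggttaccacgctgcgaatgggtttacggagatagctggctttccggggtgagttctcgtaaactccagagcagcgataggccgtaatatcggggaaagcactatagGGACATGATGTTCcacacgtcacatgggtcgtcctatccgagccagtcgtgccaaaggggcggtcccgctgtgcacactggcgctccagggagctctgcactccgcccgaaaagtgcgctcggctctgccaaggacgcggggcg
*Fam107a* window: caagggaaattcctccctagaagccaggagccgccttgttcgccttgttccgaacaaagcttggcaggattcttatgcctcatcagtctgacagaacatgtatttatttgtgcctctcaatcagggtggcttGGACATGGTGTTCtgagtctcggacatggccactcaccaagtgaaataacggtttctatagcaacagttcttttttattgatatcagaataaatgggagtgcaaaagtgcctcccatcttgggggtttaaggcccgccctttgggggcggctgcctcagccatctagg
*Per1* window: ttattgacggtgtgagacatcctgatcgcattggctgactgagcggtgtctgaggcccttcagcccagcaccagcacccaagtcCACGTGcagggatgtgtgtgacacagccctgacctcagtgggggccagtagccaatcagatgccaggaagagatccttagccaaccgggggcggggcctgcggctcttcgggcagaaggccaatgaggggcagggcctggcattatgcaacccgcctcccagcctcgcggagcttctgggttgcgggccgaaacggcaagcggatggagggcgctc

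The level of *Sgk1* was 38.8 CPM in WT and 57.5 CPM in KO (log2 fold change 0.57, SE 0.0916, adjusted *P*=0.0546 by edgeR with 8 libraries and 0.00896 without KO replicate 4). *Mt1* was at 61.2 to 76.9 CPM in WT and 95.8 to 129 CPM in KO, and *Fam107a* at 1.01 to 1.38 CPM in WT and 2.62 to 4.71 CPM in KO. Both were called higher by edgeR, *Mt1* with an adjusted *P*=0.0477 and *Fam107a* with an adjusted *P*=0.0267 by edgeR.

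Of 19 circadian clock genes, 5 were higher and 1 lower at an unadjusted *P* under 0.05 (6.07% and 4.86% of all genes), 9 were higher and 0 lower without KO replicate 4, and *Per1* alone passed an adjusted *P* of 0.05 in edgeR's test. *Per2*, the partner of *Per1*, was at 7.21, 8.14, 12.6 and 13.4 CPM in WT against 20.5, 22.7, 23.1 and 15.1 CPM in KO (log2 fold change 0.98, SE 0.219, adjusted *P*=0.136, edgeR). *Nr1d1*, a clock repressor, was at 27.0, 26.3, 18.5 and 14.1 CPM in WT against 19.7, 11.9, 13.0 and 14.6 CPM in KO. Both genes thus varied within WT, with the 2 libraries high in *Nr1d1* low in *Per2*. The core activators *Arntl* (12.9 CPM in WT, 12.7 CPM in KO) and *Clock* (42.5 CPM in WT, 41.8 CPM in KO) had log2 fold changes of -0.03 (SE 0.112) and -0.02 (SE 0.0749).

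Genes of muscle protein breakdown were examined next. Of 27 FoxO targets and ubiquitin ligases, 9 were higher and 0 lower at an unadjusted *P* under 0.05 (6.07% and 4.86% of all genes), 1 of them, *Klf15*, with an adjusted *P* under 0.05 in edgeR's test, and the median log2 fold change was 0.10. Without KO replicate 4, 10 were higher, 3 of them past the adjusted *P* by edgeR, and the median was 0.19. *Fbxo32*, the ubiquitin ligase atrogin-1, was at 37.1 CPM in WT and 58.4 CPM in KO (log2 fold change 0.65, SE 0.117, adjusted *P*=0.0706 by edgeR). For the autophagy gene *Gabarapl1*, KO over WT stood at 0.43 on the log2 scale (SE 0.0682), and edgeR gave an adjusted *P*=0.0533 with 8 libraries and 0.0424 without KO replicate 4. *Foxo3*, the transcription factor that drives such genes, was at 96.5, 99.6, 102 and 106 CPM in WT against 163, 145, 156 and 114 CPM in KO. The low KO value was that of KO replicate 4, and the adjusted *P* in edgeR's test was 0.106 with it and 0.00532 without it. Several of these genes also stand on the glucocorticoid list, so the 2 lists do not count separately.

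*Ppara*, the nuclear receptor of fatty acid oxidation, was at 8.82, 9.18, 10.9 and 9.56 CPM in WT against 25.9, 19.5, 22.9 and 17.4 CPM in KO. It was called higher (log2 fold change 1.16, SE 0.13, adjusted *P*=0.0144, edgeR). Of the 32 genes of fatty acid and ketone metabolism, 2 were higher and 2 lower at an unadjusted *P* under 0.05 (6.07% and 4.86% of all genes). Without KO replicate 3 9 of the 32 were lower and without KO replicate 2 5, with medians of -0.28 and -0.21 in place of -0.14. *Ppargc1a*, a coactivator of mitochondrial biogenesis, was at 15.9 CPM in WT and 24.7 CPM in KO (log2 fold change 0.63, SE 0.177, adjusted *P*=0.238 by edgeR with 8 libraries and 0.0221 without KO replicate 4). None of 68 nuclear and 13 mitochondrially encoded oxidative phosphorylation genes tested had an unadjusted *P* under 0.05 in edgeR's test with 8 libraries, and their medians were -0.09 and -0.04. Of the 68 nuclear genes, 64 had a negative log2 fold change, and without KO replicate 3 18 of them were lower at an unadjusted *P* under 0.05, with a median of -0.18. For fits without a library other than KO replicate 4, the share of all genes at this limit is not given here. List counts from those fits thus have no share of all genes to be read against.

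The other genes called higher had various roles. *Kcnc1*, a voltage-gated potassium channel gene, was at 36.3, 45.0, 38.5 and 40.9 CPM in WT against 85.6, 71.3, 79.6 and 56.9 CPM in KO. KO replicate 4 was the lowest KO library, as it was for *Wipf3*, a gene of actin assembly with 8.76 to 9.89 CPM in WT and 12.3 to 17.97 CPM in KO. Among the genes called, the largest log2 fold changes belonged to genes of low level, such as the kinase gene *Nek10* (0.94 ± 0.26 CPM in WT and 4.53 ± 1.36 CPM in KO, mean ± SD, n=4 each) and the noncoding RNA *BB123696* (1.04 ± 0.41 and 6.66 ± 2.04 CPM). *Slc43a3*, a purine base transporter gene, changed little but evenly, from 27.2 to 30.7 CPM in WT to 40.6 to 45.9 CPM in KO.

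Further genes called higher, chosen here after their values were seen, included immune regulators at low levels. *Il10*, an anti-inflammatory cytokine gene, was at 0.0301 to 0.181 CPM in WT and 0.634 to 1.54 CPM in KO. *Saa3*, an acute phase gene, was at 0.0452 to 0.0986 CPM in WT and 0.361 to 0.803 CPM in KO. The groups were apart for both genes, although the WT levels rest on few counts. *Cebpd*, a transcription factor of the acute phase that steroids also induce, was at 13.9 to 16.9 CPM in WT and 24.5 to 35.2 CPM in KO, and *Nfkbia*, the inhibitor of NF-kappaB, at 35.2 to 39.9 CPM in WT and 47.8 to 57.6 CPM in KO. *Xdh*, the xanthine dehydrogenase of purine breakdown, was at 7.04 to 12.7 CPM in WT and 19.6 to 28.04 CPM in KO. *Retreg1*, a receptor for the autophagy of endoplasmic reticulum, was at 115 to 141 CPM in WT and 174 to 226 CPM in KO. Of the 29 autophagy and lysosome genes, 4 were higher and 0 lower at an unadjusted *P* under 0.05 (6.07% and 4.86% of all genes). None of the 29 passed the adjusted *P* in edgeR's test. Without KO replicate 4, 7 of the 29 were higher (7.48% of all genes), and without KO replicate 3 or WT replicate 3, 2.

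Turning to the 5 genes called lower in KO (0.0276% of all genes), *Spon2*, which encodes a secreted matrix protein, was at 35.8, 32.7, 33.4 and 33.3 CPM in WT against 15.9, 22.6, 17.4 and 19.9 CPM in KO (log2 fold change -0.83, SE 0.105, adjusted *P*=0.0176, edgeR). *Dkk2*, a secreted Wnt modulator, was at 31.8 to 33.7 CPM in WT and 22.5 to 26.4 CPM in KO. *Pycr1* and *Aldh18a1* encode enzymes of proline synthesis. *Pycr1* was at 22.7 to 28.2 CPM in WT and 16.8 to 18.8 CPM in KO, and *Aldh18a1* at 47.3 to 52.4 CPM in WT and 34.5 to 39.4 CPM in KO, with log2 fold changes of -0.54 (SE 0.0785) and -0.40 (SE 0.0629). The fifth gene, *Arsi*, encodes a sulfatase and had a log2 fold change of -0.58 (SE 0.0777). All 5 kept an adjusted *P* under 0.05 in edgeR's test without KO replicate 4.

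*Pycr1* and *Aldh18a1* belong to the list of the integrated stress response. At an unadjusted *P* under 0.05, 5 of its 20 genes were higher and 5 lower (6.07% and 4.86% of all genes). Without KO replicate 1 or 4 or WT replicate 2, 3 were higher. The transcription factor *Atf5* of this list was at -0.20 on the log2 scale of KO over WT (SE 0.0576, adjusted *P*=0.24, edgeR), while *Vldlr*, a lipoprotein receptor, stood at 0.48 (SE 0.0954, adjusted *P*=0.0926, edgeR). The median of the list was -0.01.

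Among the genes nearest to a call with lower expression were several of other cell types. *Cx3cr1*, a receptor of tissue macrophages, was at 10.5 to 11.7 CPM in WT and 7.04 to 8.21 CPM in KO (adjusted *P*=0.0546, edgeR). The log2 fold change of *Cd248*, a gene of mesenchymal progenitors and pericytes, was -0.47 (SE 0.0776), and that of *Prnd*, a prion-like gene of vessels, -0.86 (SE 0.142). The sums of macrophage and pericyte markers given above were lower in KO as well, although single markers went both ways. The part of these cell types in the values was not tested.

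All 20 interferon response genes had a negative log2 fold change, with a median of -0.37. At an unadjusted *P* under 0.05, 11 of the 20 were lower and 0 higher (4.86% of all genes were lower), but 0 passed an adjusted *P* of 0.05 in edgeR's test. Without KO replicate 4, 6 of the 20 were lower at an unadjusted *P* under 0.05 (6.16% of all genes), again with 0 past the adjusted *P* by edgeR, and leaving out WT replicate 2 gave 5. *Isg15*, a ubiquitin-like protein of the antiviral response, was at 7.04 CPM in WT and 3.80 CPM in KO (log2 fold change -0.89, SE 0.18, adjusted *P*=0.101, edgeR). *Cxcl10*, an interferon-induced chemokine, had a log2 fold change of -0.97 (SE 0.258), *Ifit1* of -0.64 (SE 0.173) and *Ifi44* of -0.63 (SE 0.158). Macrophage marker sums were below WT in each KO library, although single markers went both ways. Neutrophil sums reached less high in KO, as given above, and the part of either cell type was not tested.

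Of 24 inflammation and immediate early genes, 3 were higher and 4 lower at an unadjusted *P* under 0.05 (6.07% and 4.86% of all genes), 6 were higher without KO replicate 4 and 2 lower without WT replicate 1. The monocyte chemokines *Ccl2* (5.77 CPM in WT and 2.73 CPM in KO) and *Ccl7* (4.98 and 2.27 CPM) had log2 fold changes of -1.08 (SE 0.18, adjusted *P*=0.0594, edgeR) and -1.13 (SE 0.25, adjusted *P*=0.131, edgeR). *Osmr*, the oncostatin M receptor, had one of 0.35 (SE 0.0619, adjusted *P*=0.0669, edgeR). The DNA replication genes *Mcm3*, *Mcm4* and *Mcm6* and the cyclin *Ccne1* were among 8 of 28 cell cycle genes lower at an unadjusted *P* under 0.05 (4.86% of all genes), with log2 fold changes of -0.33 to -0.20, and 0 of 28 passed an adjusted *P* of 0.05 in edgeR's test. The median of the list was -0.01, and in the fit of all 32 libraries 0 of the 28 were lower at an unadjusted *P* under 0.05. Of 20 heat shock and endoplasmic reticulum chaperones, 4 were lower at an unadjusted *P* under 0.05 (4.86% of all genes). None passed the adjusted *P*, with *Hspa5*, *Calr*, *Pdia4* and *Creld2* at log2 fold changes of -0.32 to -0.24. Without KO replicate 4, 4 chaperones were lower and 2 higher. Of 25 p53 targets and apoptosis genes, 7 were higher and 2 lower at an unadjusted *P* under 0.05 (6.07% and 4.86% of all genes), 0 at the adjusted one. Without WT replicate 1 4 of them were higher, and without WT replicate 3 0 were lower.

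**Figure D4:**
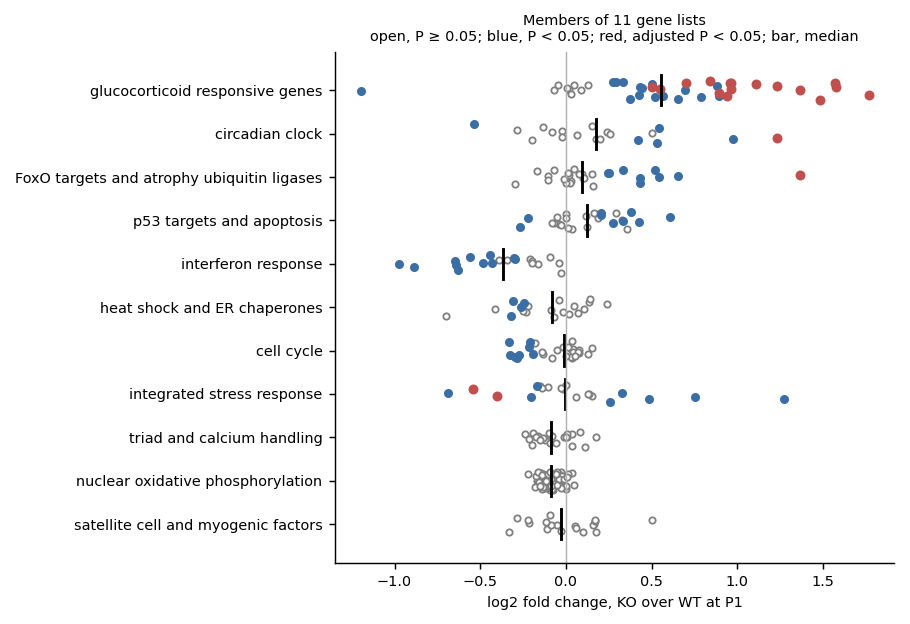
Log2 fold change of KO over WT at P1 (x axis) for each member of 11 gene lists (y axis), 1 point per gene, with a bar at the median of the list. The median is 0.56 for glucocorticoid responsive genes, a list that contains the 8 DEGs by choice, and -0.37 for interferon genes, while the other lists have medians between -0.09 and 0.18.

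Lists that concern the muscle fibre showed few differences at this age with all 8 libraries, and more in some lists without KO replicate 4. Of 22 genes of the triad and of calcium handling, 14 adult fast sarcomere genes and 19 satellite cell and myogenic genes, 0 had an unadjusted *P* under 0.05 in edgeR's test with 8 libraries, and 0 an adjusted *P* under 0.05. Without KO replicate 4, 2 of the 22, 0 of the 14 and 4 of the 19 were higher at an unadjusted *P* under 0.05 (7.48% of all genes). Without KO replicate 3, 2 of the 22, 3 of the 14 and 1 of the 19 were lower. Of 19 genes of the neuromuscular junction, 1 was higher and 1 lower at an unadjusted *P* under 0.05 (6.07% and 4.86% of all genes). Without KO replicate 4, 4 were higher (7.48% of all genes) and 1 lower. Among these junction genes, *Dok7*, an activator of the receptor kinase MuSK, was at 26.6 CPM in WT and 39.98 CPM in KO (log2 fold change 0.59, SE 0.123, adjusted *P*=0.114 by edgeR with 8 libraries and 0.04 without KO replicate 4).

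The remaining lists held few differences. At an unadjusted *P* under 0.05, 1 of 26 genes of glucose uptake and glycolysis was higher and 1 lower, 1 of 27 collagen and matrix genes was higher and 2 were lower (4 without KO replicate 1), 3 of 25 growth factor genes were higher, and 1 of 11 developmental sarcomere genes was lower. Of all genes, 6.07% were higher and 4.86% lower at this limit. None of these 4 lists had a member past an adjusted *P* of 0.05 in edgeR's test. Of the growth factor genes, 6 were higher without KO replicate 4 (7.48% of all genes) and 0 without WT replicate 1 or 2. *Pfkfb4*, a regulator of glycolysis, had a log2 fold change of -0.47 (SE 0.096), and *Slc2a1*, the basal glucose transporter, one of 0.56 (SE 0.182). Of 27 collagen and matrix genes, 24 had a negative log2 fold change (median -0.15), with *Col15a1* at -0.35 and the fibrillin *Fbn1* at -0.34. Of 13 ion channel genes, 2 were higher and 1 lower at an unadjusted *P* under 0.05 (6.07% and 4.86% of all genes). Among them, *Kcnc1* was called. Without KO replicate 4, 4 ion channel genes were higher, and without KO replicate 3, 3 were lower.

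Among the relatives and partners of *Mtm1*, 0 genes passed an adjusted *P* of 0.05 in edgeR's test with 8 libraries. Of the 13 other myotubularin family members, 1, the phosphatase *Mtmr14*, was higher at an unadjusted *P* under 0.05 (6.07% of all genes). *Mtmr14* was at 19.95 CPM in WT and 25.1 CPM in KO (log2 fold change 0.33, SE 0.0673, adjusted *P*=0.1, edgeR). Without KO replicate 4, 3 of the 13 were higher at an unadjusted *P* under 0.05 (7.48% of all genes). *Mtmr12*, a partner that stabilises myotubularin, had a log2 fold change of 0.13 (SE 0.0575). For *Dnm2*, a dynamin that cuts membrane necks and a therapeutic target in this disease, the levels were 81.9 CPM in WT and 79.7 CPM in KO (log2 fold change -0.04), and *Bin1*, which shapes membrane tubules, had a log2 fold change of -0.05. *Pik3c2b*, a lipid kinase that opposes *Mtm1*, was at 45.6 and 35.8 CPM (log2 fold change -0.35, SE 0.176), with the lowest value, 22.6 CPM, in KO replicate 4. *Atg14*, a subunit of the complex that makes PI3P for autophagy, was at 0.33 on the log2 scale of KO over WT (SE 0.0642, adjusted *P*=0.0926, edgeR). At an unadjusted *P* under 0.05, 2 of the 11 kinase genes were higher and 1 lower with 8 libraries (6.07% and 4.86% of all genes). Without KO replicate 4, 3 were higher and 2 lower (7.48% and 6.16% of all genes). Of the 12 membrane remodelling genes, 1 was higher and 1 lower in each of these 2 fits. None of the 11 kinase genes and 12 membrane remodelling genes had an adjusted *P* under 0.05 in edgeR's test with 8 libraries.

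The KO effect on the P1 DEGs was then followed to later ages, in mice and libraries that the P1 comparison had not used, by a fit of all 32 libraries. In this fit the spread is shared between ages and was wider than at P1 alone, so that *Zbtb16* had an SE of 0.38 at P1 in place of 0.119 and 0 of the 8 passed an adjusted *P* of 0.05 in edgeR's test at P1 (0.0538% of all genes were higher). All 8 genes had a positive KO effect at P1 (median log2 fold change 1.16) and a negative one at P14, P21 and P35 (medians -0.28, -0.42 and -1.20). At P14 and P21, 0 of the 8 passed an adjusted *P* of 0.05 in edgeR's test, and at P35 5 of 8 were lower. Of all genes, 0.0108% were lower at P14, 7.94% at P21 and 20.8% at P35. These 5 were *Zbtb16* (-1.02, SE 0.371), *Timp4* (-1.92, SE 0.651), *Adh1* (-1.38, SE 0.479), *Mettl21e* (-1.87, SE 0.548) and *Klf9* (-0.62, SE 0.187).

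The difference between the KO effects of 2 ages was tested itself as an interaction in the same fit. Between P14 and P1 3 genes (0.0161%) passed an adjusted *P* of 0.01, between P21 and P1 502 (2.7%) and between P35 and P1 2953 (15.9%). These comparisons share the P1 libraries. Of the 8 DEGs, 0 passed for P14, *Zbtb16* and *Klf9* passed for P21, and *Zbtb16*, *Klf9*, *Timp4* and *Mettl21e* passed for P35. The P1 effect that chose these genes enters each difference, so a lower later effect is favoured by the choice and the calls are a description. With each P1 library left out in turn, *Klf9* and *Zbtb16* passed at P35 in 8 of 8 fits. The adjusted *P* of *Zbtb16* at P21 by edgeR was 0.00998 without KO replicate 1 and 0.0105 to 0.0176 without any other P1 library, so that call was lost in 7 of 8 fits. That of *Timp4* at P35 was 0.00917 by edgeR without KO replicate 4 and 0.0102 to 0.0148 without any other, and was lost in 7 as well. *Mettl21e* at P35 did not pass without KO replicate 2 or 3 or WT replicate 1, 2 or 3, nor *Klf9* at P21 without KO replicate 3, each with an adjusted *P* of at most 0.0128 by edgeR. With only the 16 libraries of the ages compared, *Timp4* (adjusted *P*=0.00419, edgeR) and *Mettl21e* (adjusted *P*=0.000438, edgeR) passed at P21 as well, and *Fkbp5* (adjusted *P*=0.00228, edgeR) and *Adh1* (adjusted *P*=0.00019, edgeR) at P35. The difference for *Klf9* was -1.23 (SE 0.265, adjusted *P*=0.00424, edgeR) at P21 and -1.49 (SE 0.266, adjusted *P*=0.000142, edgeR) at P35. That of *Per1* was -1.42 (SE 0.503, adjusted *P*=0.0354, edgeR) at P35 with 32 libraries, short of the limit, and -1.44 with the 16 libraries of these ages (adjusted *P*=0.0091, edgeR), past it. The 40 glucocorticoid responsive genes had median KO effects of -0.13, -0.10 and -0.22 at P14, P21 and P35. At P21 5 of them were higher and 0 lower at an adjusted *P* under 0.05 in edgeR's test (9.71% of all genes higher and 7.94% lower). At P35 6 were higher and 10 lower (22% of all genes higher and 20.8% lower). Estimates were negative for 29, 23 and 24 of the 40 at these ages.

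**Figure D5:**
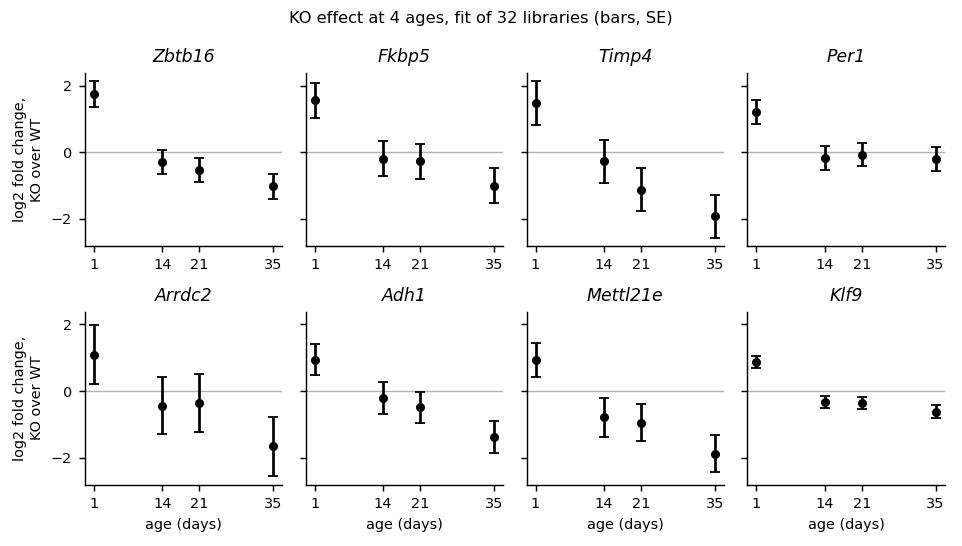
Log2 fold change of KO over WT (y axes) for the 8 P1 DEGs against age in days (x axes, 4 ages), from 1 fit of 32 libraries, with bars of 1 SE. Each gene is above 0 at P1 and below 0 at the 3 later ages, with medians of 1.16, -0.28, -0.42 and -1.20.

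Of the 5 genes called lower at P1, *Spon2* had a KO effect of 2.02 (SE 0.576, adjusted *P*=0.0143, edgeR) at P21 and of 1.37 (SE 0.5846, adjusted *P*=0.0598, edgeR) at P35. *Dkk2* was higher in KO at P35 (log2 fold change 1.33, SE 0.359, adjusted *P*=0.00355, edgeR). The macrophage gene *Cx3cr1*, not called at P1, was higher in KO at P35 as well (1.94, SE 0.327). *Pycr1*, *Aldh18a1* and *Arsi* had KO effects of 0.22 (SE 0.177), -0.18 (SE 0.142) and -0.22 (SE 0.286) at P35, which did not pass an adjusted *P* of 0.05 by edgeR. For *Nr3c2* the KO effects at P14, P21 and P35 were 0.00 (SE 0.151), -0.02 (SE 0.152) and -0.17 (SE 0.151). Interferon genes had median KO effects of -0.09, 0.03 and 0.13 at these ages.

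Genes that mark the later disease in this series showed few differences at P1. Of 17 such genes, chosen from earlier results of the later ages, 2 were higher and 1 lower at an unadjusted *P* under 0.05 with 8 libraries (6.07% and 4.86% of all genes). Without KO replicate 4, 0 were higher and 1 lower (7.48% and 6.16% of all genes). In both fits 0 of the 17 passed an adjusted *P* of 0.05 by edgeR. *Krt8* was 1 of the 2, at 5.07 to 6.26 CPM in WT, 6.42 to 7.22 CPM in 3 KO libraries and 64.9 CPM in KO replicate 4. *Runx1* and *Tubb6*, which the study follows in later muscle, had log2 fold changes of 0.05 and -0.08. Of 21 genes that the study names, 2 were higher (*Nr4a3* and *Sqstm1*) and 1 lower (*Mtm1*) at an unadjusted *P* under 0.05 (6.07% and 4.86% of all genes). *Nr4a3*, an orphan nuclear receptor gene, was at 2.58 CPM in WT and 4.87 CPM in KO (log2 fold change 0.92, SE 0.194, adjusted *P*=0.114, edgeR).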

How the data were processed

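RNA of TA was sequenced by the authors as paired-end directional libraries on an Illumina instrument. The deposited values are expected counts per gene, which the authors made with RSEM and which need not be whole numbers. The submitters' processing notes name STAR 2.6.1, RSEM 1.2.22, DESeq2 and GRCm38, while the methods name HTSeq. The annotation and the strand setting of the counts are not given in the sources used here. The methods list the 3 later ages, and P1 is named in the labels and the results.

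For the tests, the expected counts were rounded, and samples were grouped by the genotype and age in their labels. Low genes were removed with filterByExpr, library sizes were adjusted by TMM, and edgeR 4.0.16 (R 4.3.3) gave quasi-likelihood tests of KO over WT with Benjamini-Hochberg adjustment. The 8 P1 libraries were fitted alone, then without KO replicate 4, and all 32 libraries (18583 genes) were fitted together for the difference of KO effects between ages. The SE is the log2 fold change divided by the square root of its F statistic. Alternatives were DESeq2 1.42.0, RLE scaling and library totals, other filters, a replicate block and the omission of each library. Scripts were tested on simulated data. Libraries of a group differed beyond sampling noise, with a chi-square per degree of freedom of at least 21.6 over 12 pairs, so each counted as 1 sample. Depth was at least 58473134 counts per library.

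Named were *Mtm1*, genes called in either P1 fit (up to 15 a direction), the 10 strongest non-overlapping genes a direction at 5 CPM or more, up to 4 members a list with those that define it, genes the study names, and cell type markers. The members and lists were chosen with earlier results of these data known. Promoter windows came from RefSeq (GRCm38.p6) and exon 4 from GENCODE on GRCm38. Figures were drawn with matplotlib 3.10.9.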

Additional observations from a re-analysis of the deposited data

Results flagged for a closer look

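In 98 sets of 4 libraries, made of the named genes and marker sums in WT or KO, 9 held a library whose gap to its nearest neighbour took an unusually large share of the range of the 4. Chance gives about 1 in 20 such sets. KO replicate 4 was that library in 4 of the 9. It was the highest KO library for *Mtm1* (6.04 CPM, gap 0.927 of the range), for *Fam19a4* (0.303 CPM, 0.908 of the range), for the gut epithelium markers (209 CPM, 0.868 of the range) and for the neuron markers (56.7 CPM, 0.984 of the range).

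The other 5 each lay in a different library. WT replicate 1 was highest for *Aldh18a1* (52.4 CPM against 47.3 to 47.8 CPM, gap 0.916 of the range), WT replicate 2 for skeletal muscle markers (65270 CPM, 0.952 of the range) and WT replicate 3 for keratinocyte markers (11110 CPM, 0.86 of the range). KO replicate 3 was lowest for *Nr3c2* (5.36 CPM against 7.30 to 7.61 CPM, 0.859 of the range) and KO replicate 1 for macrophage markers (307 CPM against 314 to 316 CPM, 0.835 of the range).

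Among *Mtm1*, the genes called at P1 and those nearest to a call, the KO effect of 13 differed between P1 and a later age at an adjusted *P* under 0.01 in edgeR's interaction test, which uses the P1 libraries that chose them. Further members of the gene lists passed as well, among them *Ccl2*, *Ccl7*, *Cxcl10*, *Runx1* and *Vldlr*, and are not described here. For *Mtm1* the effect was lower than at P1 by log2 differences of -1.34 at P14, -1.73 at P21 and -1.59 at P35, with a P1 group that held KO replicate 4. Among the DEGs, the differences were -2.29 (P21) and -2.77 (P35) for *Zbtb16*, -1.23 (P21) and -1.49 (P35) for *Klf9*, and, at P35, -3.39 for *Timp4* and -2.80 for *Mettl21e*. Those of *Ppara* were -2.19 (P21) and -3.06 (P35), and those of *Kcnc1* -1.28 (P21) and -2.16 (P35). At P35 they were -1.72 for *Slc43a3*, -3.95 for *BB123696*, -1.09 for *Wipf3* and -1.87 for *Lvrn*. The KO effect at P35 was higher than at P1 for *Dkk2* by 1.76 and for *Cx3cr1* by 2.49.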

How the results depend on the processing

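The count of P1 DEGs, 8 in edgeR's test, was 0 to 15 when 1 library was left out, 93 by DESeq2, 106 by DESeq2 without KO replicate 4, 14 with no filter other than a count above 0, 2 with all 32 libraries in 1 fit, and 31 at an adjusted *P* under 0.05 with the same fold. RLE scaling gave 7 and library totals 9, and all were higher in KO. The number of genes with an adjusted *P* under 0.05, 44, was 6 to 92 with 1 library left out and 395 by DESeq2. Same-numbered WT and KO libraries did not deviate together (mean r=-0.14 over the 4 pairs), and with the replicate block 2 DEGs were called. *Mtm1* had log2 fold changes of -1.19 to -0.90 with 1 library left out. It passed an adjusted *P* of 0.05 without KO replicate 4, by DESeq2 (-0.99), by DESeq2 without KO replicate 4 (-1.20) and in the fit of 32 libraries (-0.99). The difference of KO effects between P14 and P1 called 8 genes with the 16 libraries of these ages alone and 3 with 32, while P21 gave 349 to 517 and P35 2376 to 3463 with 1 P1 library left out. For 30 named genes, 392 values kept direction and side of the threshold, 125 no longer passed it, 22 newly passed it and 0 changed sign. In every setting above the causes were not tested. With totals of at least 58473134 counts in each library, n=4 rather than depth limits the precision of all but the lowest genes.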

Other observations

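Markers of the exocrine pancreas and liver summed to 2.12 to 3.63 CPM in WT and 2.40 to 5.23 CPM in KO, and those of cardiac muscle to 13.7 to 17.1 CPM in WT and 9.87 to 17.5 CPM in KO. White adipocyte markers summed to 478 to 1007 CPM in WT and 445 to 836 CPM in KO, and brown adipocyte markers to 245 to 304 CPM in WT and 167 to 327 CPM in KO. The groups overlapped in each of these 4 cell types. Of 9 endothelial markers 8 and of 10 Schwann cell markers 8 had a negative log2 fold change, with 0 of either past an adjusted *P* of 0.05 in edgeR's test, and their sums overlapped between groups (808 to 872 CPM in WT and 565 to 839 CPM in KO, and 465 to 572 CPM in WT and 371 to 516 CPM in KO).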
